A study of Homo sapiens with 10 samples.

Results

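The cytosolic ribosome of human cells is built from ribosomal RNA and a fixed set of proteins, and the genes that encode those proteins were followed here through heat shock and through depletion of YTHDC1 in heat-shocked cells. Genes were taken by name from the deposited table of read counts: RPSA, RPLP0, RPLP1, RPLP2 and every gene named RPL or RPS plus a number with at most a single trailing letter A, X or L. The rule found 80 genes of the 63187 in the table. Of these, 31 encode proteins of the small (40S) subunit and 49 encode proteins of the large (60S) subunit, including the muscle and germline copies RPL3L, RPL10L and RPL39L. They lie on 21 chromosomes, with 12 on chromosome 19. The rule rests on names and not on measured values, but it was set with earlier results of these data known.

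The libraries came from U2OS, an established line grown from a human bone tumour, and formed 3 groups with 2 libraries apiece. The first group was heat shocked and carried a knockdown of YTHDC1, a nuclear protein that binds N6-methyladenosine in RNA. The second, called heated controls below, was heat shocked with a control construct, and the third was left unheated with the same control. All 3 groups share the cell line and differ in heat and in the construct. The labels call the agent shYTHDC1 or shCtrl in one field and siDC1 or siCtrl in another, so whether it was a hairpin or a small interfering RNA is not settled here. The temperature and length of the heat shock are not stated, nor is it stated that replicates are independent cultures. P-values therefore cover only the spread between these libraries, which may be technical. The 4 methylated-RNA immunoprecipitation samples of the same line were not analysed here. None of the samples is labelled as a knockdown without heat shock. Knockdown effects are therefore those in heated cells.

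Ribosomal protein genes are among the most highly transcribed genes of growing cells, and their products are needed in equal numbers because each ribosome holds a single copy of nearly all of them. Their messenger RNAs typically start with a cytosine followed by an unbroken run of pyrimidines, the terminal oligopyrimidine tract, through which LARP1 and the mTOR pathway hold back or release their translation. Heat shock is known to slow ribosome production and translation in general. Proteins left over when a subunit is not completed can bind MDM2, a ubiquitin ligase, and RPL5 and RPL11 are the best known of these.

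The starts of a few genes with changes described here show the kind of sequence that many of this class open with. They are examples and not the full set of largest changes: RPL8, RPL3L and RPL39L, among others, are not printed. Each stretch holds 20 bases before and 10 bases after the RefSeq transcription start on GRCh38.p14, written 5′ to 3′ on the strand of the gene, with the pyrimidine run that opens the transcript in capitals. RPL31 and RPL38 were lower with the knockdown, RPL13A and RPL28 were higher, RPL37A and RPL22 were higher with heat shock, RPS12 had the highest level per length in control cells, and RPL10L is shown because it has no such run.
RPL31 (chr2:101002269-101002298, plus strand): ctcccacaatccttcgcgctCTTCCTTTCC
RPL38 (chr17:74203658-74203687, plus strand): ccggaaacggaagtctcgttCTTTTTCgtc
RPL13A (chr19:49487588-49487617, plus strand): ccctgcgacaaaacctcctcCTTTTCCaag
RPL28 (chr19:55385912-55385941, plus strand): tcgcctcgcccctcgccttcCTCTTTCCgt
RPL37A (chr2:216498824-216498853, plus strand): cctgcgcaccgcgtctcttcCTTTCTgggc
RPL22 (chr1:6199586-6199615, minus strand): ctgcgtagttcgctcacctcCCTTTCTaac
RPS12 (chr6:132814549-132814578, plus strand): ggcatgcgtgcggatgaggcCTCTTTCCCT
RPL10L (chr14:46651772-46651801, minus strand): gcgcgcaggcgtagttaagagagcgcattt
Among the stretches printed, those of RPL31 and RPL38, which fell, and of RPL13A and RPL28, which rose, open with a pyrimidine run.

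RefSeq starts were found for 63 of the 80 genes. A run of at least 5 pyrimidines opening with C at the start was present in 46 of the 63 (73.0%), against 942 of 15780 other protein-coding genes (5.97%). In the window from 250 bases before to 50 bases after the start, searched on both strands, CCGGAA was present in 57.1% of the ribosomal protein genes and 26.5% of the others, AANATGGC in 15.9% and 9.65%, and TATAAA in 9.52% and 12.4%. CCGGAA is a core sequence bound by ETS factors, AANATGGC is the motif of YY1, and TATAAA is the TATA box. None of these letters was counted as a bound site. By response to the knockdown, the pyrimidine start was present in 8 of 12 genes that rose, 10 of 12 that fell and 28 of 39 that did not pass the test. For heat shock it was present in 27 of 32 genes that rose and 19 of 31 that did not pass the test.

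Libraries held between 13252370 and 15500743 counts. YTHDC1 (ENSG00000083896) stood at 121 and 118 CPM (counts scaled to library size with TMM factors) in knockdown libraries, 267 and 257 CPM in heated controls and 212 and 224 CPM in unheated controls, so the target was lower in both libraries labelled as knockdown (log2 fold change -1.14 ± 0.05 (SE), adjusted p = 2.65e-15, edgeR quasi-likelihood test). Of 7 osteosarcoma markers, 6 were at 1 CPM or more in every library and TWIST1 was at 0 in all. Summed epithelial markers (EPCAM, CDH1, KRT5, KRT14, CLDN4) stood at 97.7 and 91.7 CPM in knockdown libraries, 70.5 and 79.1 CPM in heated controls and 57.5 and 53.9 CPM in unheated controls. EPCAM, CDH1, KRT14 and KRT5 averaged higher with knockdown than in heated controls, and only CLDN4 averaged lower. Against unheated controls, all but KRT5 averaged higher with knockdown. EPCAM averaged 20.2 CPM with knockdown, 5.43 CPM in heated controls and 5.40 CPM in unheated controls. CLDN4 averaged 57.6 CPM with knockdown, 64.4 CPM in heated controls and 43.1 CPM in unheated controls. Summed blood markers stood at 0.702 and 2.57 CPM with knockdown, 1.84 and 6.51 CPM in heated controls and 0.126 and 0.385 CPM in unheated controls, with CD3E and HBB among those at 0 in every library. Their part in the results was not tested. In a bulk sample, fewer cells of a kind and less RNA per cell cannot be told apart.

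As a family, the genes took 6.51% and 6.52% of all counts in knockdown libraries, 6.50% and 6.44% in heated controls, and 6.22% and 6.16% in unheated controls. Both heated groups were above the unheated group, and the knockdown libraries lay just above the heat-shocked controls. With 2 libraries a group no exact test of these shares could pass the threshold. All 80 genes passed the filter on low counts. RPL3L passed it only through the heated groups, with 30 and 36 counts in knockdown libraries, 18 and 16 in heated controls and 5 and 6 in unheated controls, so its difference was in part a condition of its entry.

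Levels per length spanned a wide range. Per kilobase of the deposited gene length, RPS12 averaged 1294 CPM per kb in knockdown cells, 1340.3 in heated controls and 1168 in unheated controls, and was the highest member in both control groups. RPS12 lies in the beak of the small subunit head. Its deposited length, 639 bases, is the shortest of the members. A short length raises the value per kilobase, so the rank of RPS12 rests in part on it. RPL13A came next in both control groups and stood above RPS12 with knockdown. In all 3 groups the lowest were RPL3L and RPS10, with RPL36A and RPL17 also low. The deposited length covers all annotated exons of a gene and can be far longer than the main transcript, which lowers the value per kilobase of such genes. At the low end, RPS10 had 3.37 and 3.06 CPM in knockdown libraries, 3.38 and 2.58 CPM in heated controls and 3.46 and 2.95 CPM in unheated controls. RPS10, RPL36A and RPL17 are overlapped by annotated read-through genes (RPS10-NUDT3, RPL36A-HNRNPH2 and RPL17-C18orf32), which themselves held 0 to 3 counts per library.

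Copies of these genes are a limit on the counts. Rows named as pseudogenes were present for 77 of the 80 genes, 1589 rows in all, and held between 3.98% and 4.25% as many counts as the genes themselves. For RPL36A the pseudogene rows held 2242% of the gene's own counts, for RPL22 330.0%, for RPL17 232% and for RPS28 95.0%. RPS7 (34.6%), RPS2 (33.6%) and RPL26 (29.4%) followed. The counting rule for reads that match several places is not given in the sources used here, so the levels of these genes are uncertain.

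With YTHDC1 knocked down in heat-shocked cells, the median change of the family was close to 0, while a few large-subunit genes changed by far more. RPL31, at the rim of the exit tunnel, fell 3.89-fold, and RPL8, a protein close to the peptidyl transferase centre, fell 3.77-fold. RPL38 fell 1.56-fold. RPL13A rose 1.41-fold, and the germline and muscle copies RPL39L, RPL10L and RPL3L, all of low level, rose 1.65-fold, 1.45-fold and 1.82-fold. Of the 80 genes, 16 rose and 15 fell, where 27.4% of all 17290 tested genes rose and 27.2% fell, so the share of changed members was below the background. At 100 CPM or more, 11 of 70 members rose and 15 fell, beside 35.2% and 37.5% of 2168 genes. The median log2 fold change of the members was 0.01, beside -0.00 over all genes.

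**Figure D1:**
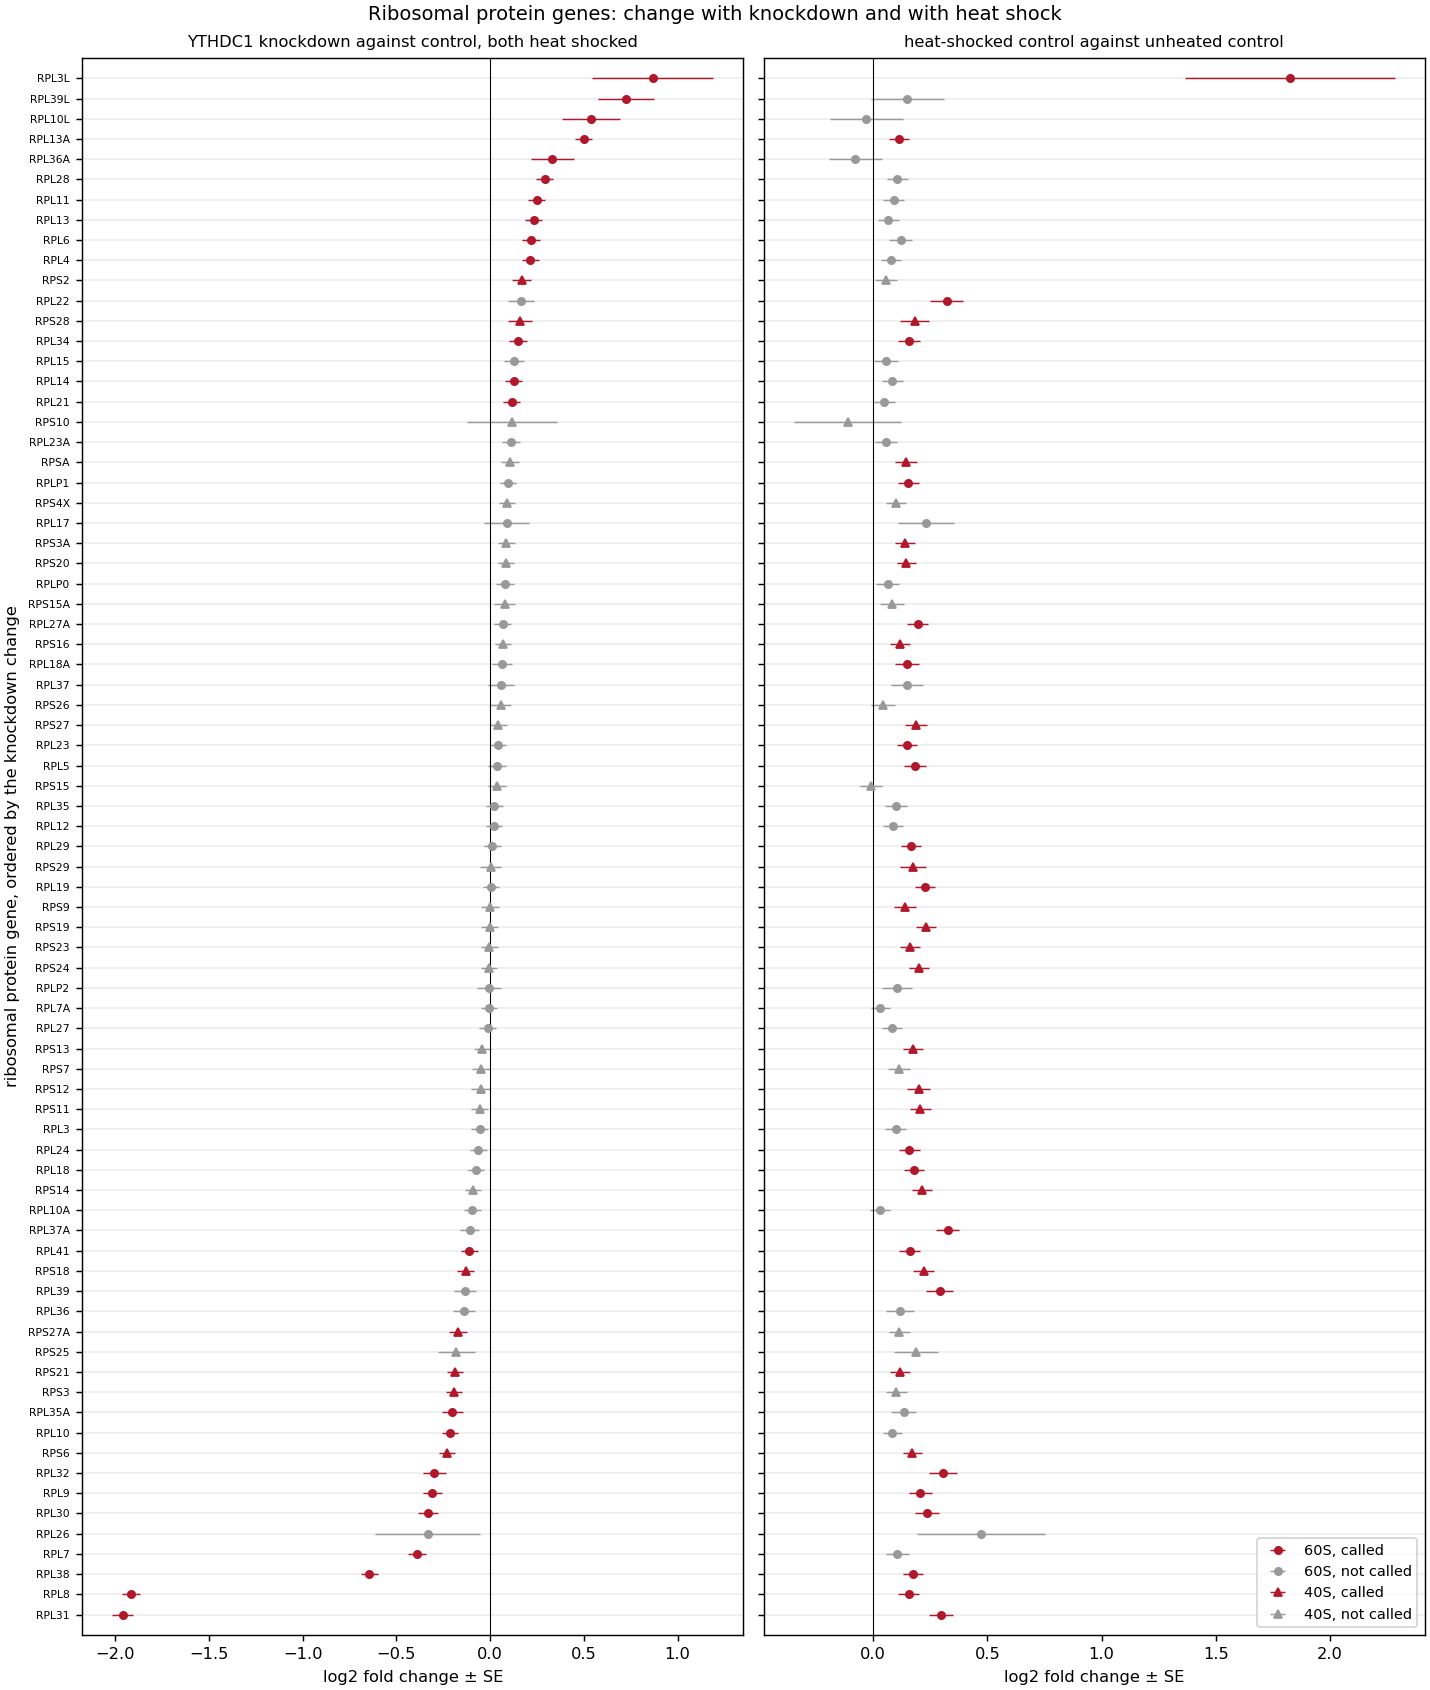
Log2 fold change (x axis, ± SE) of 77 of the 80 ribosomal protein genes (y axis), ordered by the knockdown change, for YTHDC1 knockdown against control in heat-shocked cells (left) and for heat-shocked against unheated control cells (right); circles are 60S genes, triangles 40S genes, and red marks an edgeR adjusted p under 0.05. RPL31 (-1.96) and RPL8 (-1.92) stand apart on the left, and 73 of the 77 points lie above 0 on the right.

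RPL31 (ENSG00000071082, chromosome 2, 101002289 to 101019724 on GRCh38.p14) stood at 281 and 281 CPM in knockdown libraries, 1171 and 1014 CPM in heated controls and 878 and 898 CPM in unheated controls. The 3 groups did not overlap: heat-shocked controls were highest and knockdown libraries lowest, at 25.7% of the heated level. The log2 fold change between knockdown and heat-shocked control was -1.96 ± 0.06 (SE, adjusted p = 7.66e-18). The gene overlaps TBC1D8, which averaged 18.4 CPM over all libraries and did not pass the test (log2 fold change 0.23 ± 0.12, adjusted p = 0.103).

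RPL8 (ENSG00000161016) stood at 441 and 468 CPM in knockdown libraries, 1679.9 and 1754 CPM in heated controls and 1577 and 1506 CPM in unheated controls. Both knockdown libraries lay far below all 4 control libraries. The 2 control groups lay closer to each other, with both heated libraries above both unheated ones. RPL8 was among the 42 genes that rose with heat shock, a call that was not kept under every alternative. The log2 fold change was -1.92 ± 0.05 (SE, adjusted p = 2.19e-19). RPL8 made up 0.669% and 0.714% of the family's counts with knockdown, against 2.54% and 2.67% in heat-shocked controls. Its pseudogene RPL8P3 also fell, to 0.702 and 0.972 CPM in knockdown libraries against 6.22 and 4.08 CPM in heat-shocked controls (log2 fold change -2.60 ± 0.30). Reads of the gene and of this copy cannot be told apart with certainty.

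These falls were large for genes of this abundance. Among the 222 genes of at least 500 CPM, 48 of them ribosomal protein genes, RPL31 and RPL8 ranked 2 and 3 by the size of the fall with knockdown. CALR, a chaperone of the endoplasmic reticulum, fell most (-2.24 ± 0.05), and NPM1, a nucleolar histone chaperone that helps export ribosomal subunits, came next after RPL8 (-1.76 ± 0.05). Of these 222 genes, 6 fell at least 2-fold.

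RPL38, known in mice for its part in translating Hox messenger RNAs, had 412 and 421 CPM in knockdown libraries, 660.5 and 640.1 CPM in heated controls and 568 and 585 CPM in unheated controls. Here too the knockdown libraries lay below all controls (log2 fold change -0.64 ± 0.04, adjusted p = 9.2e-12). RPL7 had 488 and 459 CPM in knockdown libraries, 651 and 589 CPM in heated controls and 576 and 576 CPM in unheated controls (-0.39 ± 0.05, adjusted p = 3.34e-07). RPL7 is an RNA-binding protein of the large subunit. RPL30, whose yeast counterpart regulates the splicing of its own transcript, had 327 and 312 CPM in knockdown libraries, 429.7 and 373 CPM in heated controls and 340.1 and 341 CPM in unheated controls (-0.33 ± 0.05, adjusted p = 1.55e-05). RPL9, near the site where translation factors bind, had 385 and 349 CPM in knockdown libraries, 475 and 434 CPM in heated controls and 402 and 385 CPM in unheated controls (-0.31 ± 0.05, adjusted p = 1.99e-05). For RPL30 and RPL9 the knockdown libraries were near the unheated level, and it was the heat-shocked controls that stood above both.

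The other large-subunit genes that fell did so by less. RPL32 (-0.30 ± 0.06), RPL10 (-0.22 ± 0.04) and RPL35A (-0.20 ± 0.06) were the next, all as log2 fold changes. RPL10 sits near the P site and is among the last proteins to join the large subunit, and RPL35A is among the genes mutated in Diamond-Blackfan anaemia, an inherited failure of red cell production. The call on RPL35A rested on heat-shocked control replicate 1 and knockdown replicate 1, without which the adjusted p was 0.208 and 0.064.

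**Figure D2:**
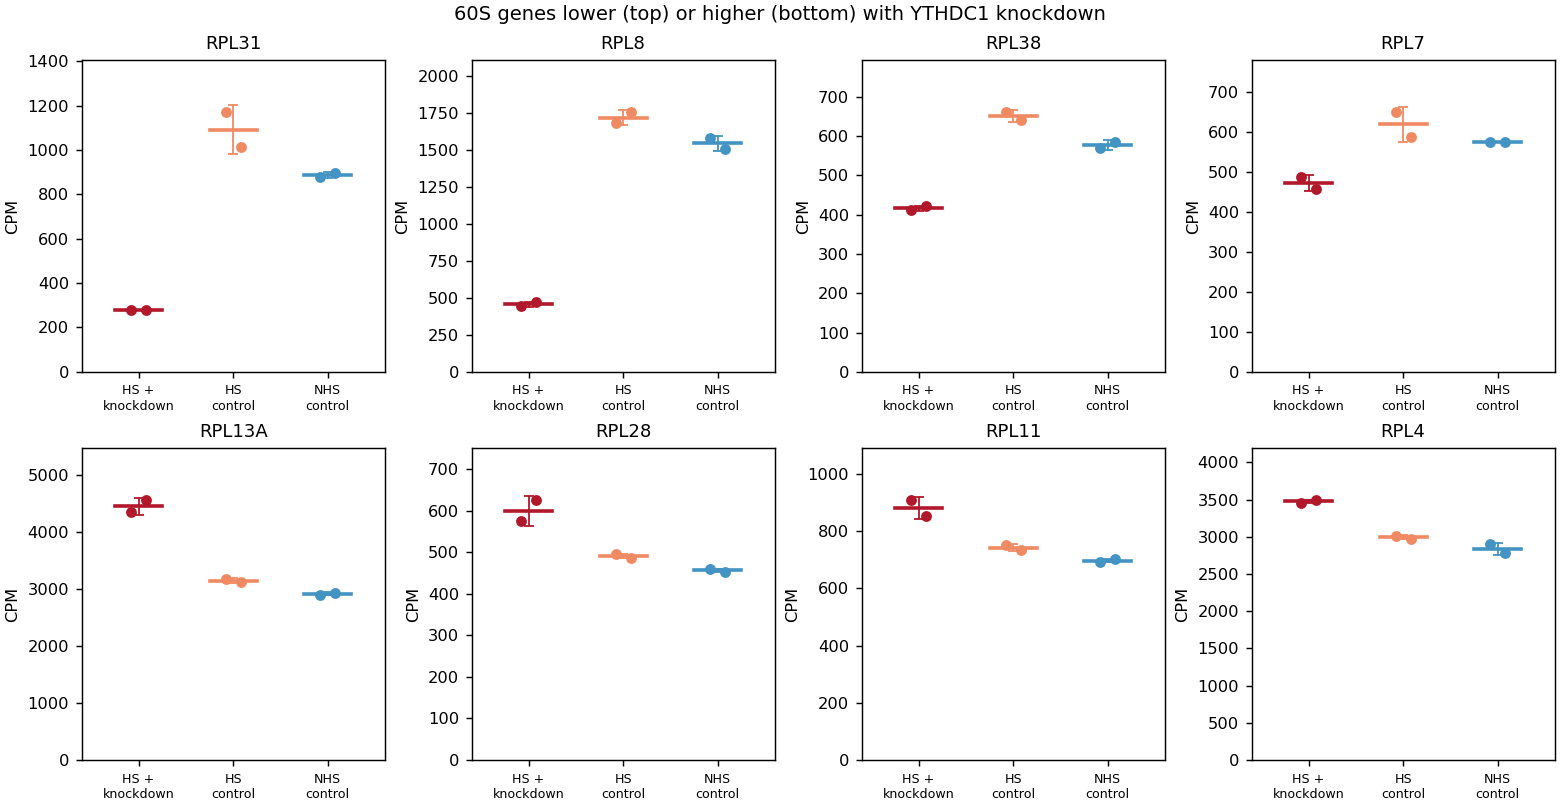
TMM-scaled CPM (y axis, from 0) in each library (points), with the mean (bar) and SD (n = 2), for 4 large-subunit genes that fell with YTHDC1 knockdown (top) and 4 that rose (bottom); groups from left to right are heat-shocked knockdown, heat-shocked control and unheated control cells. RPL31 stood at 281 CPM in both knockdown libraries, and the knockdown libraries lie apart from all 4 controls in all 8 panels. HS stands for heat shocked and NHS for unheated.

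RPL13A, which besides its place in the ribosome takes part in silencing inflammatory messenger RNAs, led the abundant genes that rose. It stood at 4346 and 4561 CPM in knockdown libraries, 3179 and 3120.2 CPM in heated controls and 2898 and 2932 CPM in unheated controls, with no overlap between groups (log2 fold change 0.50 ± 0.04, adjusted p = 1.48e-09). Its pseudogenes did not share a direction. RPL13AP5 rose, at 87.9 and 88.2 CPM in knockdown libraries and 71.9 and 69.7 CPM in heat-shocked controls. RPL13AP25 rose as well (0.47 ± 0.13), RPL13AP20 fell (-0.83 ± 0.20, adjusted p = 0.00128), and RPL13AP26 (-0.37 ± 0.30) did not pass the test. RPL28 had 575 and 625 CPM in knockdown libraries, 495 and 487 CPM in heated controls and 459 and 453 CPM in unheated controls (0.29 ± 0.05, adjusted p = 9.46e-06). RPL13 (0.23 ± 0.04), RPL6 (0.22 ± 0.05) and RPL4 (0.21 ± 0.04) rose as well, as log2 fold changes. RPL4 reaches with a long loop into the exit tunnel. RPL13A, RPL28, RPL11, RPL13, RPL6, RPL4 and RPL39L were the 7 of the 16 risen genes that passed the test under every one of 19 alternatives. Of the 15 fallen genes 11 did, among them RPL31, RPL8, RPL38, RPL7, RPL30, RPL9 and RPL32.

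All 3 low-level copies rose with knockdown. RPL39L, the germline copy of the tunnel protein RPL39, had 12.9 and 15.8 CPM in knockdown libraries, 8.29 and 9.01 CPM in heated controls and 8.94 and 6.67 CPM in unheated controls, so that both knockdown libraries stood above all 4 controls (0.72 ± 0.15, adjusted p = 0.000203). RPL10L, the testis copy of X-linked RPL10, had 8.64 and 8.89 CPM in knockdown libraries, 5.60 and 6.44 CPM in heated controls and 6.17 and 6.16 CPM in unheated controls (0.54 ± 0.15, adjusted p = 0.0047). RPL3L, the heart and skeletal muscle copy of RPL3, had 2.11 and 2.50 CPM in knockdown libraries, 1.38 and 1.14 CPM in heated controls and 0.315 and 0.385 CPM in unheated controls (0.87 ± 0.32, adjusted p = 0.0261). Of their parent genes, RPL10 fell while RPL3 (-0.06 ± 0.05) and RPL39 (-0.14 ± 0.06) did not pass the test.

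The rises of 3 low-level genes did not hold throughout. RPL10L had an adjusted p of 0.0663 with DESeq2 and 0.0586 without heat-shocked control replicate 1. RPL3L had 0.204 with DESeq2, 0.0535 and 0.152 without heat-shocked control replicate 1 or 2, and 0.154 without knockdown replicate 2. RPL36A, with 18.7 and 17.0 CPM in knockdown libraries, 12.7 and 15.6 CPM in heated controls and 15.2 and 14.7 CPM in unheated controls (0.33 ± 0.12, adjusted p = 0.0185), had an adjusted p of 0.926 once pseudogene reads were added, 0.117 with DESeq2, 0.254 without heat-shocked control replicate 1 and 0.114 without knockdown replicate 1.

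Small-subunit genes stayed within a narrow band with knockdown: 3 rose and 5 fell of 31, and all log2 fold changes lay between -0.23 and 0.17. Head proteins of the decoding side gave 2 rises and 3 falls among 14, and body and platform proteins 1 rise and 2 falls among 17. Over all tested genes 27.4% rose and 27.2% fell. RPS6, the substrate of S6 kinase, had 1164 and 1169 CPM in knockdown libraries, 1376 and 1361 CPM in heated controls and 1225 and 1206 CPM in unheated controls, and fell (-0.23 ± 0.04, adjusted p = 6.85e-05). RPS3, at the entry of the messenger RNA channel, had 1602 and 1566 CPM in knockdown libraries, 1834 and 1788 CPM in heated controls and 1721 and 1654 CPM in unheated controls, and fell as well (-0.19 ± 0.04, adjusted p = 0.000665). Both knockdown libraries were below all 4 controls for both genes.

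RPS27A is made as a fusion with ubiquitin and so feeds the ubiquitin pool. It had 1432 and 1384 CPM in knockdown libraries, 1646 and 1526 CPM in heated controls and 1443 and 1489 CPM in unheated controls (-0.17 ± 0.05, adjusted p = 0.00308), a call that was lost without heat-shocked control replicate 1 (adjusted p = 0.0833). RPS2, also at the messenger RNA entry, had the largest rise of the small subunit (0.17 ± 0.05), lost without that same library (adjusted p = 0.111). RPS19, the gene most often mutated in Diamond-Blackfan anaemia, had 1126 and 1116 CPM in knockdown libraries and 1138 and 1108 CPM in heat-shocked controls (-0.00 ± 0.04, adjusted p = 0.964). RPS26, near the messenger RNA exit, had 297 and 296 CPM and 269 and 302 CPM in the same order (0.06 ± 0.05, adjusted p = 0.402). Of the 15 genes listed for Diamond-Blackfan anaemia, 2 rose (RPL11 and RPS28) and 1 fell (RPL35A). These are 13.3% and 6.67%, beside 27.4% and 27.2% of all tested genes. RPS28 passed the test in 13 of the 19 alternatives.

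The acidic stalk of the large subunit, which recruits elongation factors, gave no call among its 3 genes. RPLP0 had 3103 and 3038 CPM in knockdown libraries and 2748 and 3065 CPM in heat-shocked controls (0.08 ± 0.05, adjusted p = 0.184). RPLP1 had 2402 and 2518 CPM in knockdown libraries and 2255 and 2351 CPM in heat-shocked controls (0.10 ± 0.04, adjusted p = 0.0772). RPLP2 had 1399 and 1326 CPM in knockdown libraries and 1246 and 1489 CPM in heat-shocked controls (-0.01 ± 0.07, adjusted p = 0.95). For RPLP0 and RPLP2 the 2 heat-shocked controls were farther apart than the 2 knockdown libraries.

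Of RPL5, RPL11 and RPL23, which are among the proteins that bind MDM2, RPL11 rose and RPL5 and RPL23 did not pass the test. RPL11 (chromosome 1, 23691779 to 23696835) had 909 and 853 CPM in knockdown libraries, 751 and 733 CPM in heated controls and 694 and 701 CPM in unheated controls, with no overlap between knockdown and controls (0.25 ± 0.04, adjusted p = 4.66e-05). RPL5, its partner in the 5S particle, had 2291 and 2164 CPM in knockdown libraries and 2262 and 2082 CPM in heat-shocked controls (0.04 ± 0.05, adjusted p = 0.549). RPL23 had 819 and 829.6 CPM in knockdown libraries and 823 and 779 CPM in heat-shocked controls (0.04 ± 0.04, adjusted p = 0.442). Among the 9 genes of the exit tunnel, RPL4 rose, RPL31 fell and 7 did not pass the test. That is 11.1% each way, beside 27.4% and 27.2% of all tested genes.

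Heat shock of control cells shifted most of the family up by a small amount. Of the 80 genes, 42 rose and 1 fell, where 20.6% of all tested genes rose and 23.3% fell. The median log2 fold change was 0.14, against -0.03 over all genes, and 75 of the 80 values were positive. Among genes of at least 100 CPM, 39 of 70 members rose and 0 fell by edgeR, against 32.6% and 26.5% of 2168 genes at that level. Values of those 70 members had an SD of 0.07 on the log2 scale, against 0.56 for all genes of that level. The median stayed positive under all alternatives tried, but scaling by library size alone left 20 rises and a median of 0.07. The count over all genes under that scaling is not given here.

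**Figure D3:**
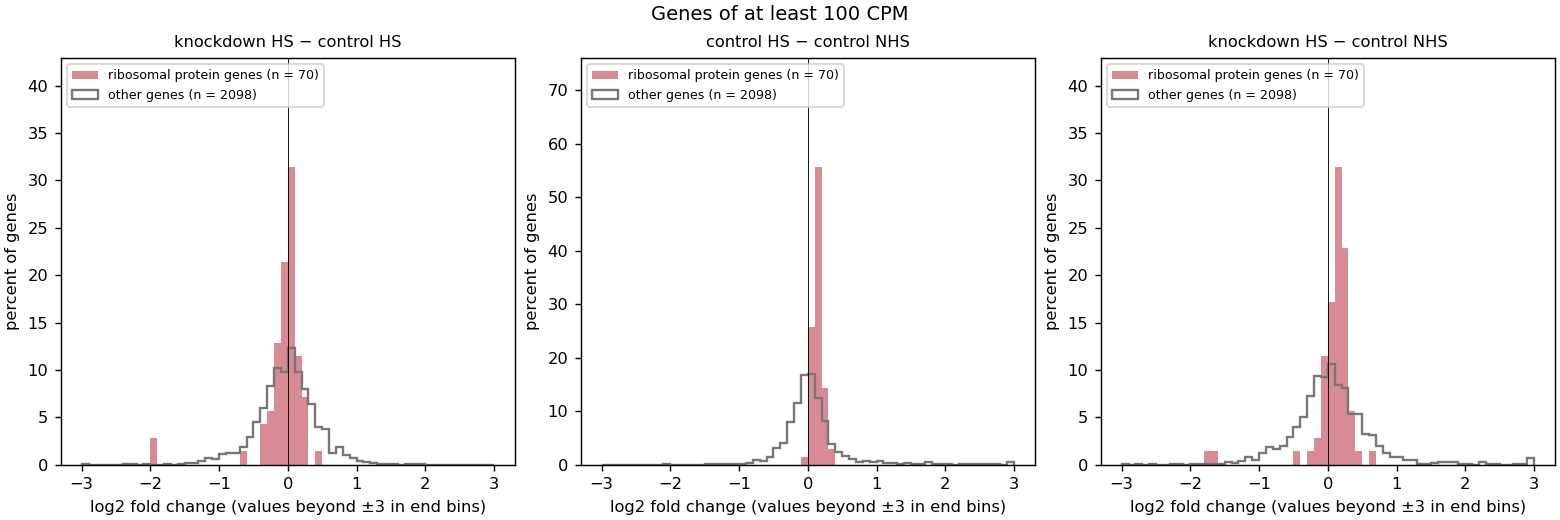
Distribution of log2 fold changes (x axis) as percent of genes (y axis) for the 70 ribosomal protein genes of at least 100 CPM (filled) and the 2098 other genes of that level (line), for knockdown against control in heat-shocked cells (left), heat-shocked against unheated controls (middle), and heat-shocked knockdown against unheated controls (right). Ribosomal protein genes form a narrow peak centred at 0.14 in the middle panel, and RPL31 and RPL8 lie near -2 on the left.

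RPL3L had the largest log2 fold change (1.82 ± 0.46), from the few counts given above, and is a description only, since its entry depended on the heated groups. RPL37A, a zinc-binding protein of the large subunit, had 831 and 736 CPM in heated controls and 634 and 615 CPM in unheated controls (0.33 ± 0.05, adjusted p = 8.98e-06). RPL22, known in mice for its part in T cell development, had 38.8 and 40.5 CPM in heated controls and 31.8 and 31.7 CPM in unheated controls (0.32 ± 0.07, adjusted p = 0.000922), a call that was lost once its pseudogene reads were added (adjusted p = 0.216). RPL32 (0.31 ± 0.06, adjusted p = 0.000515) had 634 and 547 CPM in heated controls and 474 and 482 CPM in unheated controls. RPL31 rose too (0.30 ± 0.05, adjusted p = 6.1e-05), with the values given above. For RPL37A, RPL22, RPL32 and RPL31 both heated libraries stood above both unheated ones.

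In the small subunit 20 of 31 genes rose. RPS19 had 1138 and 1108 CPM in heated controls and 983 and 929 CPM in unheated controls (0.23 ± 0.04, adjusted p = 0.00014). RPS12 rose (0.20 ± 0.05), as did RPS6 (0.17 ± 0.04). The RPS12 call was lost under the gene length offset (adjusted p = 0.111), the replicate block with that offset (0.109) and without heated replicate 1 (0.103). The RPS6 call was lost with library size alone (0.0507) and without unheated replicate 2 (0.0676). RPS3 (0.10 ± 0.04, adjusted p = 0.0648), RPS27A (0.11 ± 0.05, adjusted p = 0.0513) and RPS26 (0.04 ± 0.05, adjusted p = 0.551) did not pass the test. RPS27A was called higher in 12 and RPS3 in 9 of the 19 alternatives, so both lie at the edge of the threshold. Of 14 head genes 8 rose and 1 fell, and of 17 body and platform genes 12 rose and 0 fell by edgeR. Over all tested genes 20.6% rose and 23.3% fell. The smallest of the rises, among them those of RPL13A, RPS16, RPS21 and RPS3A, had log2 fold changes between 0.11 and 0.14. The calls on RPL13A, RPS16, RPS21 and RPS3A were lost in 8, 6, 9 and 4 of the 19 alternatives.

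In the large subunit 22 of 49 genes rose. RPLP1 rose (0.15 ± 0.04), while RPLP0 (0.06 ± 0.05) and RPLP2 (0.10 ± 0.07) did not pass the test. RPL5 (0.18 ± 0.05) and RPL23 (0.15 ± 0.04) rose, and RPL11 (0.09 ± 0.04, adjusted p = 0.111) did not pass the test. The calls on RPL5 and RPL23 were each lost in 3 alternatives, with adjusted p of 0.109 and 0.159 without heated replicate 1, and RPL11 was called in 4, so no difference between these genes is shown. The RPLP1 call was lost in 4 alternatives, and RPLP0 and RPLP2 were each called in 1. Of the exit tunnel genes 4 of 9 rose, of the Diamond-Blackfan genes 6 rose and 1 fell of 15, and the copies RPL10L and RPL39L did not pass the test. These counts stand beside 20.6% rises and 23.3% falls over all tested genes.

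The count of rises with heat shock changed when single libraries were left out, also where that library was a knockdown library outside this comparison. Counts over all tested genes changed too, and the cause was not tested. The median log2 fold change of the members stayed between 0.11 and 0.15 in these fits. Genes that passed the test under all 19 alternatives numbered 13, among them RPL37A, RPL32, RPL31, RPS19 and RPS14. RPL3L is counted among the 13 and among the 42 rises, although its entry into the test depended on the groups where it is high.

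The 2 heat-shocked control libraries lay apart in a number of these genes. Among members of at least 100 CPM, 19 of 70 differed more than 1.1-fold between them, against 5.39% of the 2098 other genes of that level. For knockdown libraries it was 3 of 70, against 15.0% of other genes, and for unheated controls 1 of 70, against 1.67%. RPL26, a protein of the tunnel exit, differed most, with 77.7 and 77.2 CPM in knockdown libraries, 120.2 and 75.4 CPM in heated controls and 65.1 and 75.4 CPM in unheated controls, so that 1 heated library stood apart and the other lay at the level of the rest. RPL26 did not pass the test in any comparison. With limma voom it was called higher with heat shock (adjusted p = 0.0103), and without robust estimation it was called in both comparisons with heat-shocked controls (adjusted p = 0.0311 with knockdown and 0.00438 with heat). Without heat-shocked control replicate 2 it was higher with heat shock (log2 fold change 0.78, adjusted p = 9.24e-11) and lower with knockdown (-0.64, adjusted p = 4.36e-09).

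**Figure D4:**
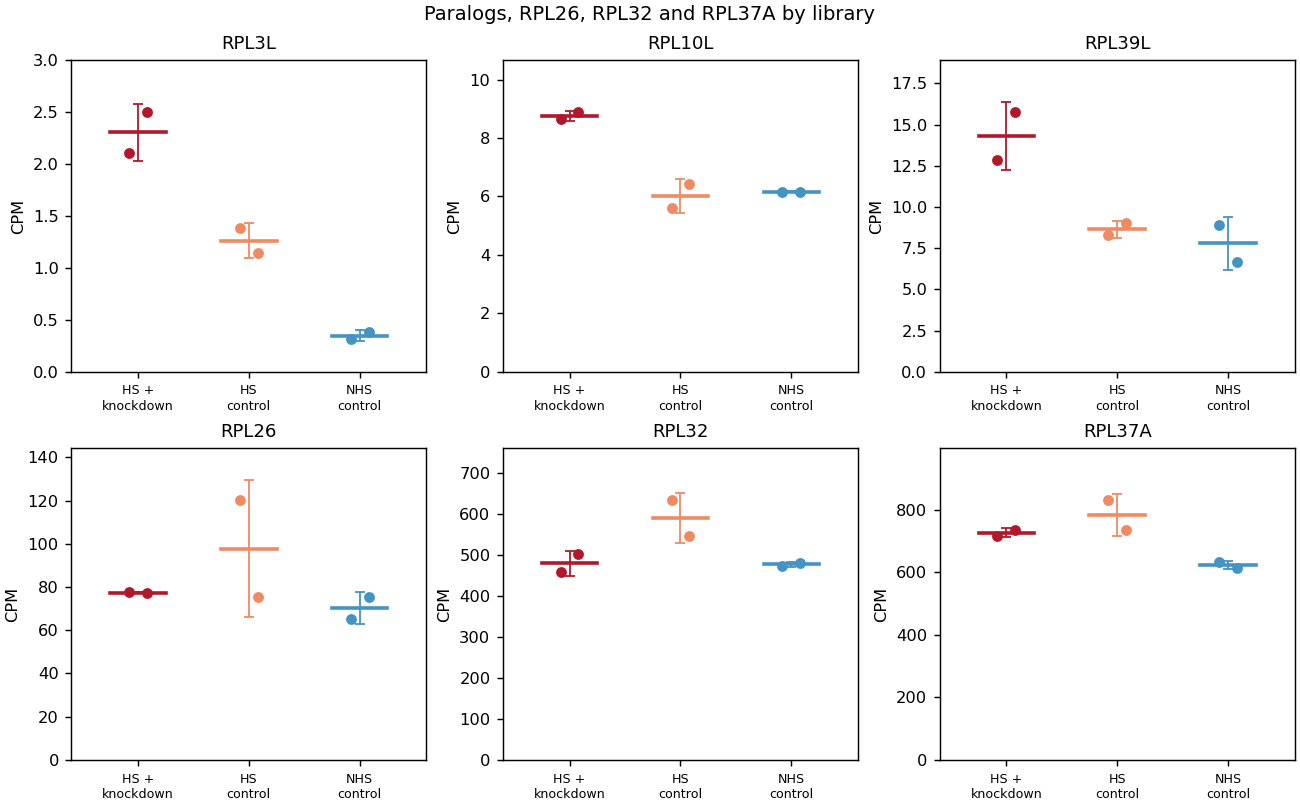
TMM-scaled CPM (y axis, from 0) in each library (points), with the mean (bar) and SD (n = 2), for the 3 low-level copies RPL3L, RPL10L and RPL39L and for RPL26, RPL32 and RPL37A; groups from left to right are heat-shocked knockdown, heat-shocked control and unheated control cells. All 3 copies are highest with knockdown, with HS for heat shocked and NHS for unheated, and the heat-shocked control libraries of RPL26 lie far apart at 120.2 and 75.4 CPM.

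Set against unheated controls, most of the family was higher in heat-shocked knockdown cells, and a few genes were far lower. Of the 80 genes, 50 rose and 6 fell, where 31.1% of all tested genes rose and 31.1% fell. RPL3L is counted among the 50 rises, although its entry into the test depended on the groups where it is high. At 100 CPM or more, 44 of 70 members rose and 5 fell, beside 41.3% and 35.5% of genes at that level. The median log2 fold change was 0.16, against -0.00 over all genes, with 33 rises and 13 falls when libraries were scaled by size alone, and 32 rises without unheated replicate 2. For scaling by size alone the count over all genes is not given here. Both comparisons with unheated cells share the unheated control libraries. Heat-shocked knockdown cells and unheated controls differ in both heat and construct, so effects of heat and of knockdown cannot be told apart between them. Among the 6 that fell were RPL8 (-1.76 ± 0.05), RPL31 (-1.66 ± 0.05), RPL38 (-0.47 ± 0.04), RPL7 (-0.28 ± 0.05) and RPL10 (-0.13 ± 0.04), as log2 fold changes. RPL10 lost its call under the gene length correction (adjusted p = 0.142) and without unheated replicate 1 (adjusted p = 0.0817).

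The largest rises in that comparison included those of RPL39L (0.87 ± 0.15), RPL13A (0.61 ± 0.04), RPL10L (0.51 ± 0.15) and RPL22 (0.49 ± 0.07), as log2 fold changes. RPL11 (0.34 ± 0.04), RPL5 (0.22 ± 0.05) and RPL23 (0.19 ± 0.04) all passed the test. Of the stalk, RPLP1 (0.25 ± 0.04) and RPLP0 (0.14 ± 0.05) rose and RPLP2 (0.10 ± 0.07) did not pass the test. The RPLP0 call was lost with library size alone (adjusted p = 0.126), and the RPL10L call with the DESeq2 Wald test (adjusted p = 0.0614). Without unheated replicate 2 the log2 fold changes of RPLP0 and RPL23 were 0.11 and 0.15, and neither call was kept. The RPLP0 call was not kept without unheated replicate 1 either. Of the small subunit 20 of 31 rose and 1 fell, with 7 rises and 1 fall among 14 head genes and 13 rises among 17 body and platform genes. In the tunnel list 7 rose and 1 fell of 9, of the Diamond-Blackfan genes 8 rose and 1 fell of 15, and the copies RPL10L and RPL39L rose. These counts stand beside 31.1% rises and 31.1% falls over all tested genes.

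Across the 3 comparisons, 12 of the 80 genes passed no test and 8 passed all 3, where 3975 and 3304 of all 17290 tested genes did (23% and 19.1%). A group of 10 genes (12.5%), beside 8.4% of all tested genes, was higher in heat-shocked than in unheated controls and lower with knockdown than in heat-shocked controls. Both of these comparisons use the heat-shocked control libraries, so a high value in those libraries by itself enters both. Against unheated cells, 7 of the 10 did not pass the test and 3 fell. RPL32 is one of the 7, at 459 and 502 CPM in knockdown libraries, 634 and 547 CPM in heated controls and 474 and 482 CPM in unheated controls, so that the knockdown libraries lay on either side of the unheated ones.

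Genes that work with these proteins did not share a single direction. The counts of each list in the sentences that follow stand beside 27.4% rises and 27.2% falls over all tested genes with knockdown, 20.6% and 23.3% with heat, and 31.1% and 31.1% against unheated cells. Mitochondrial ribosomal protein genes, which build a separate ribosome, gave 15 rises and 29 falls of 77 with knockdown (median -0.09), the falls led by MRPL45 (-1.22 ± 0.07), MRPL51 (-1.12 ± 0.05) and MRPL42 (-0.75 ± 0.09). With heat shock 12 rose and 19 fell (median -0.02), and MRPL18 (1.73 ± 0.05) and MRPS6 (1.24 ± 0.05) rose most. In heat-shocked knockdown cells set against unheated controls, 12 rose and 32 fell. Their cytosolic counterparts had medians of 0.01, 0.14 and 0.16 in the same 3 comparisons.

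Other RNAs with a pyrimidine start gave 10 rises and 1 fall of 19 with heat (median 0.13), with SNHG5 (1.08 ± 0.16) and TPT1 (0.48 ± 0.05) highest. With knockdown 7 rose and 7 fell (median 0.06), with NPM1 lowest and GAS5, a host gene of small nucleolar RNAs, highest (0.77 ± 0.06). Against unheated cells 12 rose and 3 fell. Of 8 ribosomal protein genes left out by the name rule, such as FAU and RPL22L1, 3 rose and 3 fell with knockdown, 4 rose and 2 fell with heat, and 2 rose and 2 fell against unheated cells. RPL22L1, the close relative of RPL22, fell with knockdown (-0.42 ± 0.08) and with heat (-0.46 ± 0.07).

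Ribosome assembly factors gave 10 rises and 17 falls of 36 with heat (median -0.12), with LTV1 (-0.91 ± 0.07), NMD3 (-0.84 ± 0.07) and RRS1 (-0.67 ± 0.08) lowest. LTV1 and NMD3 escort the small and the large subunit out of the nucleus. With knockdown 12 rose and 11 fell, with NOLC1 (1.43 ± 0.05) and NMD3 (1.29 ± 0.06) highest and NHP2 (-0.89 ± 0.06) lowest, and against unheated cells 9 rose and 13 fell. Of 14 chaperones and importers of ribosomal proteins, 2 rose and 5 fell with knockdown, 4 rose and 4 fell with heat, and 4 rose and 6 fell against unheated cells. KPNB1, importin beta, fell most with knockdown (-2.39 ± 0.05).

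RNA polymerase I and III genes, which make the ribosomal and transfer RNAs, gave 8 rises and 6 falls of 26 with knockdown, 7 and 7 with heat, and 9 and 11 against unheated cells. With knockdown these were 30.8% rises and 23.1% falls, and with heat 26.9% of each, near the shares over all genes. Regulators of ribosomal protein messenger RNA translation gave 5 rises and 9 falls of 23 with knockdown, with MTOR at -0.76 ± 0.06 and RPS6KA1 at 0.94 ± 0.07. With heat they gave 8 rises and 7 falls, with LARP4 at 0.88 ± 0.05 and RPTOR at -0.81 ± 0.06, and 10 rises and 7 falls against unheated cells. Of 9 genes of the ribosome stress response, 6 rose and 3 fell with knockdown, with MDM2 at 0.83 ± 0.05 and MAP3K20, the kinase that senses stalled ribosomes, at -0.87 ± 0.05. With heat 2 rose and 5 fell, with CDKN1A at -1.18 ± 0.05 and MDM2 at -0.77 ± 0.05, and against unheated cells 2 rose and 3 fell. All these values are log2 fold changes ± SE.

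The mean log2 CPM of the family over the 6 libraries was compared with 9832 genes of at least 10 CPM. The 5 most alike were ZNF234, ARHGEF26, TRAF6, PRKDC and ZNF484, with Pearson r between 0.995 and 0.998 over 6 libraries. The libraries share 3 groups and their scaling, so this is a description of the order of the groups.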

How the data were processed

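RNA sequencing of total RNA (TRIzol) from 6 U2OS libraries was analysed, 2 per group. The authors deposited whole-number counts per gene, not normalized. Build GRCh38, HISAT2 2.2.1, featureCounts 2.0.2 and Trim Galore 0.6.7 are listed per the submitters' processing notes, beside SAMtools 1.17 and FastQC 0.11.8. Which gene models were counted, and how strand and multiply mapped reads were handled, is not given in the sources used here; reads shared with pseudogenes, overlapping or antisense genes may be split or lost.

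Symbols were matched to 62666 of 63187 gene IDs. In R 4.3.3, edgeR 4.0.16 fitted 1 quasi-likelihood model (TMM scaling, robust estimation, filterByExpr with a minimum count of 10) to 17290 genes in all 6 libraries. P-values were adjusted over all tested genes by Benjamini-Hochberg, with a threshold of 0.05. DESeq2 1.42.0 and limma 3.58.1 served as alternatives. The procedure was run on counts simulated with the fitted spread, and the outcome is not reported here. Such counts cannot show whether p-values hold for the real spread between libraries. In each comparison, genes described singly were the 6 called members with the largest rise and the 6 with the largest fall or smallest rise. Added to these were the stalk genes, RPL5, RPL11, RPL23, RPS3, RPS6, RPS19, RPS26, RPS27A and the 3 low-level copies. The extremes per kilobase and up to 3 called genes of each other list were also named. RPL26, RPL4, RPL6, RPL13, RPL28, CALR, TBC1D8 and the pseudogenes of RPL8 and RPL13A were named after their values were seen where they fall outside this. The members and lists were chosen with earlier results of these data known. A few genes are counted but not reported here by name. The methylated-RNA immunoprecipitation samples were not analysed here.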

Additional observations from a re-analysis of the deposited data

How the results depend on the processing

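Each of 85 results on named genes was recomputed under 19 alternatives, giving 1615 values. Of these, 1461 kept direction and side of the threshold, 86 lost a call, 47 gained a call and 21 changed sign. Of the 60 named results that passed the test, 37 did so under every alternative and 0 changed direction.

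For heat shock against unheated controls, library size alone gave 20 rises and a median of 0.074. The median was 0.16 with DESeq2 size factors, upper-quartile scaling or the DESeq2 Wald test, 0.17 with only the 2 groups compared, and 0.18 with a gene length offset, with or without the replicate block. There were 0 falls under the DESeq2 Wald test, no filter, and both length offset fits, and DESeq2 called 2514 genes lower over the whole table. With knockdown in heated cells, DESeq2 called 9 rises, and the median was 0.023 with library size alone, -0.00095 with no filter, -0.0036 with the length offset and -0.0031 with block and offset. For knockdown against unheated controls, library size alone gave 33 rises, 13 falls and a median of 0.10. That median was 0.17 with DESeq2 size factors, upper quartile or the DESeq2 Wald test, 0.14 with no filter and 0.19 with either length offset fit. With pseudogene reads added, the family's share was 6.79% and 6.78% with knockdown, 6.76% and 6.71% in heated controls, and 6.48% and 6.42% in unheated controls. The cause of the other shifts was not tested. Apart from the 2514 falls, counts over all genes in these fits are not given. The member counts here therefore cannot be set against a background.

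Leaving out 1 library at a time gave 19 to 52 rises, 0 to 1 falls and medians of 0.11 to 0.15 for heat shock, with 2758 to 3929 rises and 3068 to 4440 falls over all genes. It gave 10 to 20 rises, 11 to 19 falls and medians of -0.017 to 0.024 for knockdown in heated cells, with 4038 to 4588 rises and 4052 to 4615 falls over all genes. For knockdown against unheated controls it gave 32 to 49 rises, 5 to 9 falls and medians of 0.13 to 0.15, with 4554 to 5478 rises and 4695 to 5534 falls over all genes. The 10 rises with knockdown were those without heat-shocked control replicate 1.

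Sign changes were of named results that did not pass the test as reported. With library size alone RPLP0 was at -0.0077 and RPS26 at -0.027 for heat shock, and RPLP2 at 0.0087 and RPS19 at 0.011 for knockdown in heated cells. Leave-one-out ranges that crossed 0 were, for heat shock, -0.14 to 0.060 for RPL10L, -0.053 to 0.37 for RPL39L, -0.018 to 0.14 for RPLP0, -0.030 to 0.22 for RPLP2 and -0.044 to 0.12 for RPS26. For knockdown in heated cells they were -0.0065 to 0.080 for RPL23, -0.64 to 0.036 for RPL26, -0.031 to 0.095 for RPL5, -0.00024 to 0.15 for RPLP0, -0.13 to 0.12 for RPLP2, -0.13 to 0.022 for RPS12, -0.031 to 0.014 for RPS19 and -0.029 to 0.13 for RPS26.

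Same-numbered libraries did not deviate together: correlations of deviations were 0.083 for knockdown and heat-shocked control, 0.014 for the 2 controls and -0.054 for knockdown and unheated control, over 9921 genes. With the replicate block, 42 members rose and 1 fell with heat, 17 rose and 17 fell with knockdown in heated cells, and 49 rose and 7 fell against unheated controls. Counts over all genes with the block are not given beside them. With 2 libraries a group, depth and replicate number limit what small differences can be called.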
